A study of Mus musculus with 8 samples.

Results

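Transcripts of 9 genes of cell survival and growth were followed in cultured mouse primary myotubes, which are muscle cells formed by the fusion of precursor cells. They are the Pim kinase genes Pim1, Pim2 and Pim3, the transcription regulator genes Bcl3, Bcl6 and Myc, and Mcl1, Bcl2l1 and Bcl2, whose products hold back apoptosis. The genes were chosen by name as known targets of the transcription factor STAT3, and each was found by its Ensembl identifier among the 53647 genes counted. All 9 were among the 15603 genes with enough counts to be tested. The wild-type precursors were isolated from the limbs of pups 2 to 3 days of age, and 5% horse serum was used to differentiate them. They were then left untreated (Control) or given interleukin 6 (IL6), leukaemia inhibitory factor (LIF) or oncostatin M (OSM), each at 250 ng/ml for 48 h. Cells were harvested 72 h after differentiation, and each of the 4 groups has 2 libraries. Nothing in the labels says whether the 2 libraries of a group came from separate animals or cultures, so p-values measure only the spread between these libraries, which may be technical.

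IL6, LIF and OSM bind receptors that share the subunit gp130, and their best known route to the nucleus is phosphorylation of STAT3 by JAK kinases. Pim kinases are active as soon as they are made, so their transcript level matters for their activity, and they phosphorylate regulators of survival, growth and the cell cycle. Mcl1, Bcl2l1 (Bcl-xL) and Bcl2 bind and restrain the proteins that open the outer mitochondrial membrane, Bcl3 is an IkB-like partner of NF-kB, Bcl6 is a transcriptional repressor, and Myc drives ribosome production and cell growth. Socs3, the feedback inhibitor of this pathway and a direct STAT3 target, served as a reference gene.

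RefSeq promoter windows, 250 bases before to 50 bases after an annotated start on GRCm38.p6, were found for 8 of the 9 genes, 12 windows in all. Myc had no entry. The stretches upstream of Bcl6 and Socs3 are shown because they hold the palindrome TTCNNNGAA, the general form of a STAT site, and those of Pim2, Bcl3 and Mcl1 because these genes changed with OSM. Capitals mark TTCNNNGAA, which reads the same on both strands, and each sequence runs 5′ to 3′ on the strand of its gene.
Bcl6 first window: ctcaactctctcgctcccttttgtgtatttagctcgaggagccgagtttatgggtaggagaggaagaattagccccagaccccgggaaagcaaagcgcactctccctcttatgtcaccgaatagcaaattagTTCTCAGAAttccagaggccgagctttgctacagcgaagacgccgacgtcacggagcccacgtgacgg
Bcl6 second window: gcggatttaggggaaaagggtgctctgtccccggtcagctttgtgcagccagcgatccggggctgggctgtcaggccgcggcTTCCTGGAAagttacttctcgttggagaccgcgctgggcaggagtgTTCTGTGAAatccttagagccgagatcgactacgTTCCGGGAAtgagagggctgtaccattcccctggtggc
Socs3: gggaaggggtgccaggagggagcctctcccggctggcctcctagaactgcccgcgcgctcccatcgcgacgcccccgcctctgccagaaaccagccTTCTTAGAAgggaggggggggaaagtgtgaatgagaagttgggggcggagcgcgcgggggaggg
Pim2: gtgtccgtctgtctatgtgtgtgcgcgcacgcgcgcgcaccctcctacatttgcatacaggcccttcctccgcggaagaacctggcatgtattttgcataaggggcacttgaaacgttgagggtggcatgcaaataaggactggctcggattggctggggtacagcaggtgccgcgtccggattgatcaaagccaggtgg
Bcl3: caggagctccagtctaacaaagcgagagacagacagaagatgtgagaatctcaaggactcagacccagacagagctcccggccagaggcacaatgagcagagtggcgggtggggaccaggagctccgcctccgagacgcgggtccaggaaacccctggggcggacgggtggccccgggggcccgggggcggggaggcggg
Mcl1: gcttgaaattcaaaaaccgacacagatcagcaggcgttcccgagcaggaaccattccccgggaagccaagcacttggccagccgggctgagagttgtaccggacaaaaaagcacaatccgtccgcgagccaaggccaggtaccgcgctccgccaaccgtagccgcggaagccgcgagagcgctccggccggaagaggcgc
The Bcl6 stretches lie on the minus strand at chr16:23988903-23989102, which GENCODE M21 leaves intergenic, and at chr16:23981334-23981533, in an intron of Bcl6. The Socs3 stretch is at chr11:117969457-117969616 on the minus strand, in an M21 intron of Socs3. The other stretches are intergenic in M21, Pim2 at chrX:7878056-7878255 and Mcl1 at chr3:95658471-95658670 on the plus strand, and Bcl3 at chr7:19822806-19823005 on the minus strand. TTCNNNGAA occurred in 2 of the 12 windows, both of Bcl6, against 8.3% of all 32851 RefSeq windows of this length. The first Bcl6 window has TTCTCAGAA at 118 bases before the start, and the second has TTCCTGGAA, TTCTGTGAA and TTCCGGGAA. The stricter TTCCNGGAA, itself one form of TTCNNNGAA and again the same on both strands, was in 1 of the 12 windows, the second of Bcl6, against 1.15% of all windows. Such matches describe the letters of these windows and are not measured binding sites.

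Of the 9 genes, 3 rose with OSM (Pim2, Bcl3 and Mcl1) and none fell at an adjusted p under 0.05, where 21.2% of all tested genes passed, 10.7% higher and 10.5% lower. With LIF, Pim2, Bcl3 and Mcl1 rose and Bcl2 fell, 4 of 9, where 7.7% of all tested genes passed, 4.18% higher and 3.52% lower. With IL6, 0 of 9 passed by edgeR, 0 reached an unadjusted p under 0.05 and DESeq2 called 0, where 0% of all tested genes passed by edgeR and 5.18% reached an unadjusted p under 0.05. The median log2 change of the 9 genes was 0.25 with OSM, −0.05 with LIF and −0.03 with IL6. These comparisons share the 2 Control libraries. Levels below are TMM-scaled CPM, that is counts relative to library size after scaling by edgeR's trimmed mean of M values, changes are log2 values with their standard error (SE), and adjusted p-values are from edgeR's quasi-likelihood test with Benjamini-Hochberg adjustment over all tested genes. In bulk RNA, fewer cells of a type and less RNA per cell cannot be told apart.

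**Figure D1:**
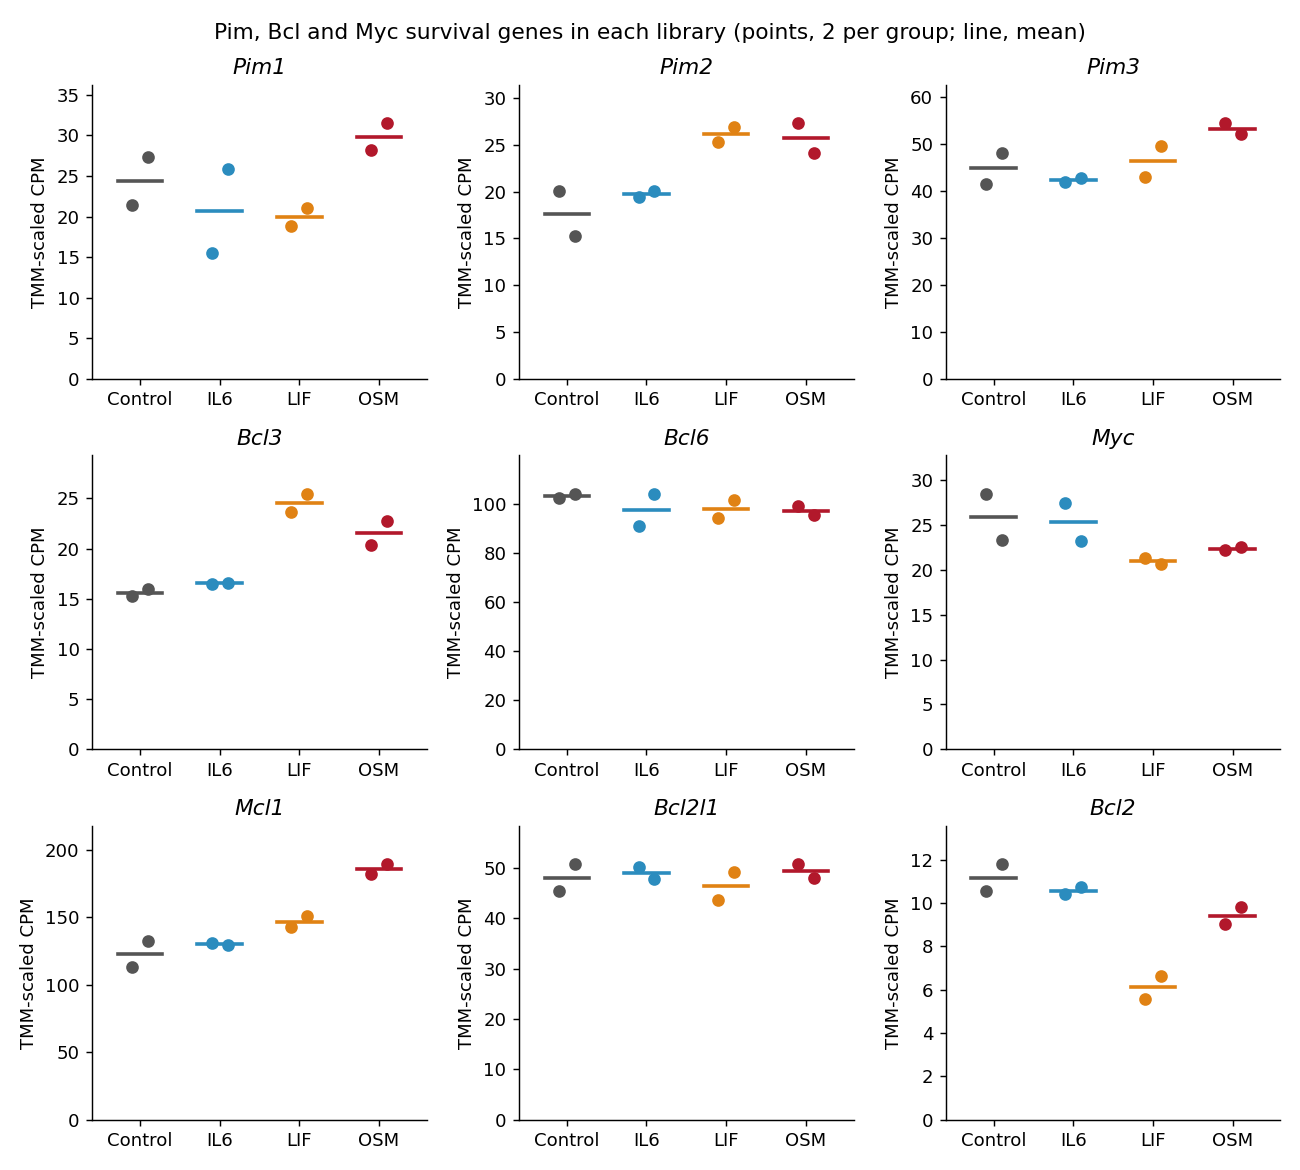
TMM-scaled CPM (vertical axis, from 0) of the 9 genes in each library, with 2 points per group and a line at their mean. Pim2, Bcl3 and Mcl1 were higher in both LIF and both OSM libraries than in both Control libraries, and Bcl2 was lowest in the 2 LIF libraries.

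Libraries were alike in depth, with 29482077 to 30025471 counts and 21358 to 21831 genes detected. Markers of differentiated myotubes summed to 24051 to 25083 CPM in Control and 20820 to 23580 in IL6. They summed to 22065 to 23367 CPM in LIF and 21261 to 21431 in OSM, so both Control libraries were highest. Their median log2 change was −0.21 with OSM and −0.12 with LIF. Over all tested genes 10.7% rose and 10.5% fell with OSM, and 4.18% rose and 3.52% fell with LIF. Of the 10 myotube markers, 1 rose and 2 fell with OSM and likewise with LIF. The number lower with OSM moved with the fit, to 6 with DESeq2 and 7 with the 2 groups alone. It was smaller without Control replicate 1 or either LIF or either OSM replicate, and larger without either IL6 replicate. The number lower with LIF was smaller without either LIF, either Control or either OSM replicate. The number of all genes called with OSM and with LIF also moved with the library left out. Fibroblast markers summed to 1652 to 1717 CPM in Control, 1504 to 1704 in IL6, 1984 to 2047 in LIF and 2059 to 2167 in OSM. Col3a1 made up most of each sum, at 1332 and 1534 CPM in Control and 1972 and 2064 in OSM. Dcn, at most 3.64 CPM, and Col1a2, at most 1.04 CPM, overlapped between Control and OSM. Of the 8 fibroblast markers 5 were tested: Col3a1 and Pdgfra rose with OSM and Col3a1 with LIF. Col1a1 went the other way, from 309 and 169 CPM in Control to 72.1 and 84.7 in OSM (log2 change −1.61, adjusted p 0.0845), and DESeq2 called 1 fibroblast marker lower with OSM. Lum and Tcf21 had 0 counts in all 8 libraries, which allows up to 3 counts in each, and Thy1 reached at most 0.0336 CPM. Without LIF replicate 1 or 2 the adjusted p for Col3a1 with LIF was 0.0827 or 0.0959 and without Control replicate 1 it was 0.0513; Pdgfra with OSM had 0.122 without Control replicate 1 and 0.226 without OSM replicate 2. Macrophage markers summed to 3.50 to 7.05 CPM, highest in OSM. Of these 8 markers 4 were tested, and 1, Cd68, was called higher with OSM and 0 with LIF. Itgam and Cd14 were above Control in both OSM libraries, at most 1.20 CPM. Cd163 was below it, at 0.410 and 0.336 CPM in OSM against 0.446 and 0.638 in Control. Adgre1, Csf1r, Lyz2 and Ptprc reached at most 0.239 CPM in any library. Endothelial markers summed to 4.99 to 6.44 CPM, with 4 of 8 tested and 0 of these called with OSM or LIF. Markers of dividing cells were lower with OSM in 10 of 10 and with LIF in 9 of 10. These markers were called less often with LIF without Control replicate 2 or LIF replicate 2. They summed to 882 to 1037 CPM in Control, 828 to 897 in IL6, 645 to 700 in LIF and 261 to 307 in OSM. The part of these markers in the results on the 9 genes was not tested.

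Among the Pim kinases, Pim2 rose with OSM and LIF, while Pim1 and Pim3 passed in neither comparison with Control. Pim2 (ENSMUSG00000031155) stood at 20.0 and 15.3 CPM in Control, 19.4 and 20.0 in IL6, 25.3 and 27.0 in LIF, and 27.3 and 24.2 in OSM. All 4 LIF and OSM libraries lay above all 4 Control and IL6 libraries. The rise was 0.55 with OSM (SE 0.12, adjusted p 0.00479) and 0.57 with LIF (SE 0.12, adjusted p 0.00948), and OSM and LIF differed by −0.02 (95% interval −0.26 to 0.22). Without OSM replicate 1 the adjusted p with OSM was 0.079. With LIF it was 0.0604 without Control replicate 2, 0.0564 without LIF replicate 1 and 0.119 without LIF replicate 2.

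Pim1 (ENSMUSG00000024014), the family member most often listed as a STAT3 target, stood at 21.4 and 27.4 CPM in Control, 15.5 and 25.8 in IL6, 18.9 and 21.0 in LIF, and 28.2 and 31.5 in OSM. Both OSM libraries were above both Control libraries and both LIF libraries were below them, and the 2 IL6 libraries were the farthest apart of any pair. The log2 change was 0.29 with OSM (SE 0.20, adjusted p 0.370, 95% interval −0.17 to 0.75) and −0.29 with LIF (SE 0.21, adjusted p 0.514, 95% interval −0.77 to 0.19), so at this spread neither difference could be told from 0. OSM against LIF gave 0.58 (SE 0.21, adjusted p 0.146). That p was 0.00412 without IL6 replicate 1, 0.00416 without IL6 replicate 2 and 2.43e-05 with OSM and LIF alone in the fit. In M21, 14.5% of Pim1's exon bases overlap Gm26885 on the opposite strand. With both strands searched, 10.6% of Pim1's 50-base stretches also occur in transcripts of Gm26885. How far this affects the counts of Pim1 depends on the strand setting of counting, which is not given.

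Pim3 (ENSMUSG00000035828) stood at 41.6 and 48.1 CPM in Control, 42.0 and 42.8 in IL6, 43.1 and 49.6 in LIF, and 54.5 and 52.1 in OSM. Both OSM libraries lay above the other 6. OSM against Control gave 0.25 (SE 0.087, adjusted p 0.0586) and LIF against Control 0.05 (SE 0.088, adjusted p 0.829). The OSM value passed without Control replicate 2 (adjusted p 0.0179), without IL6 replicate 1 (0.0443), without IL6 replicate 2 (0.0442) and with the 2 groups alone in the fit (0.0475). Pim3 had the highest level of the 3 kinases in Control per kilobase of exon, 18.5 ± 1.90 CPM per kb (SD, n = 2), against 7.26 ± 1.25 for Pim1 and 6.32 ± 1.20 for Pim2.

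Of the transcription regulators, Bcl3 rose with OSM and LIF, while Bcl6 and Myc did not pass in any comparison with Control. Bcl3 (ENSMUSG00000053175) stood at 15.3 and 15.9 CPM in Control, 16.4 and 16.6 in IL6, 23.6 and 25.5 in LIF, and 20.3 and 22.8 in OSM. The groups did not overlap, and LIF was highest and Control lowest. LIF against Control gave 0.65 (SE 0.093, adjusted p 0.00101) and OSM against Control 0.47 (SE 0.094, adjusted p 0.00325). OSM against LIF gave −0.19 (SE 0.089, adjusted p 0.258), so the order of the 2 cytokines did not pass the test. Without OSM replicate 2 the adjusted p with OSM was 0.0544. In M21, 6.51% of Bcl3's exon bases overlap Gm16175 on the opposite strand.

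Bcl6 (ENSMUSG00000022508), the one gene of the set with TTCNNNGAA in its windows above, stood at 102.4 and 103.9 CPM in Control, 91.1 and 104.2 in IL6, 94.5 and 101.8 in LIF, and 99.1 and 95.5 in OSM. Both OSM and both LIF libraries lay just below Control. The change was −0.08 with OSM (95% interval −0.24 to 0.07, adjusted p 0.456) and −0.07 with LIF (95% interval −0.23 to 0.08, adjusted p 0.652). Socs3, with 1 match in its window, stood at 41.6 and 44.2 CPM in Control, 50.6 and 53.3 in IL6, 117 and 120 in LIF, and 110 and 111 in OSM. The LIF and OSM libraries were far above the rest, by 1.47 (SE 0.064, adjusted p 4.99e-08) and 1.37 (SE 0.064, adjusted p 1.81e-08), and IL6 against Control gave 0.28 (SE 0.066, adjusted p 0.611).

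Myc (ENSMUSG00000022346) stood at 28.5 and 23.3 CPM in Control, 27.5 and 23.2 in IL6, 21.3 and 20.7 in LIF, and 22.2 and 22.5 in OSM. All 4 LIF and OSM libraries lay below all 4 Control and IL6 libraries. LIF against Control gave −0.30 (SE 0.11, adjusted p 0.126, 95% interval −0.54 to −0.07) and OSM against Control −0.21 (SE 0.11, adjusted p 0.199, 95% interval −0.44 to 0.02). Without Control replicate 2 the adjusted p with LIF was 0.0369.

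The 3 genes that restrain apoptosis each went a different way. Mcl1 rose with OSM and LIF, Bcl2 fell with LIF, and Bcl2l1 passed in no comparison. Mcl1 (ENSMUSG00000038612), whose protein is short-lived, stood at 113 and 132 CPM in Control, 131 and 130 in IL6, 143 and 151 in LIF, and 182 and 189 in OSM. OSM lay above LIF and LIF above the other groups, with no overlap. OSM against Control gave 0.60, or 1.51-fold (SE 0.073, adjusted p 6.27e-05), a call that held under each of the 13 alternatives tried. LIF against Control gave 0.26, or 1.20-fold (SE 0.073, adjusted p 0.0487), a call that was lost in 8 of 13. Its adjusted p was 0.286 without Control replicate 1, 0.147 without LIF replicate 1, 0.377 without LIF replicate 2, 0.0966 without OSM replicate 1 and 0.0966 without OSM replicate 2. It was 0.0617 with no filter on low counts, 0.0514 with another scaling (RLE) and 0.0737 with the 2 groups alone.

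Bcl2 (ENSMUSG00000057329) stood at 10.5 and 11.8 CPM in Control, 10.4 and 10.7 in IL6, 5.58 and 6.63 in LIF, and 9.03 and 9.80 in OSM. The LIF libraries were lowest and the OSM libraries lay between them and Control. LIF against Control gave −0.87, or 0.547-fold (SE 0.13, adjusted p 0.00136), and the call held under all 13 alternatives. OSM against Control gave −0.25 (SE 0.12, adjusted p 0.179, 95% interval −0.51 to 0.02). In M21, 6.09% of its exon bases overlap D630008O14Rik on the opposite strand and 6.75% of its 50-base stretches are shared with other transcripts.

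Bcl2l1 (ENSMUSG00000007659) stood at 45.4 and 50.7 CPM in Control, 50.2 and 47.7 in IL6, 43.6 and 49.2 in LIF, and 50.7 and 48.0 in OSM. All 4 groups overlapped. Its change was 0.04 with OSM (95% interval −0.14 to 0.22, adjusted p 0.793) and −0.05 with LIF (95% interval −0.23 to 0.13, adjusted p 0.799).

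**Figure D2:**
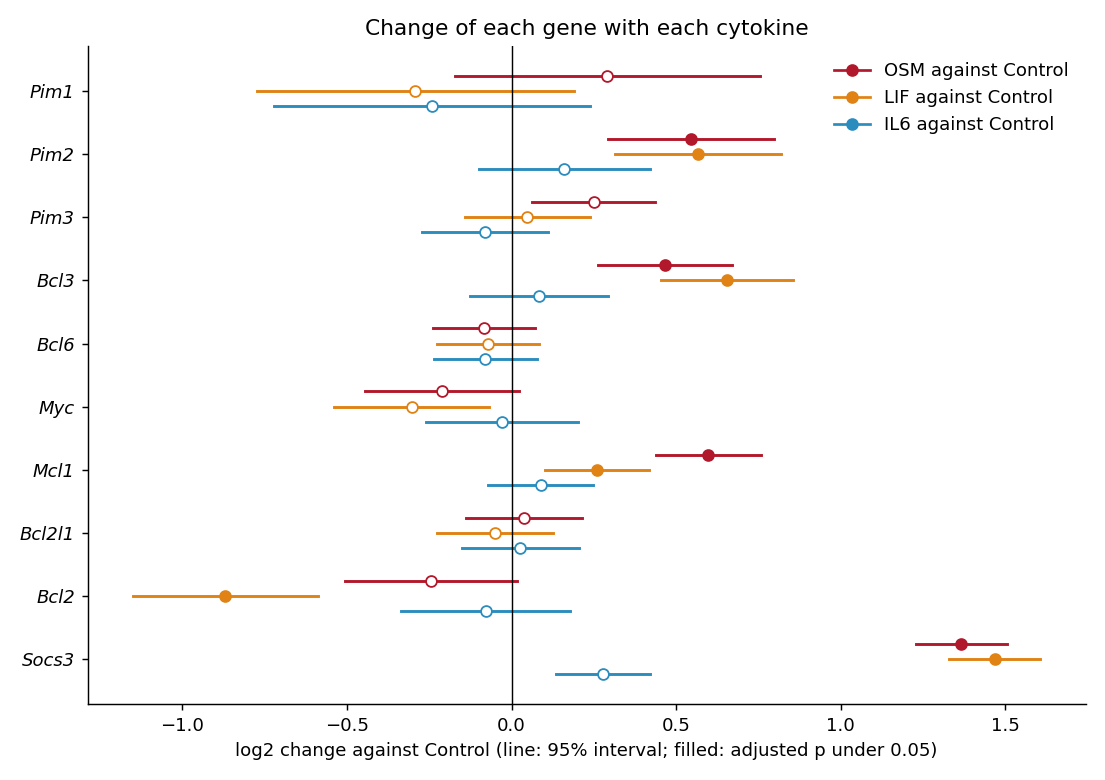
Log2 change of each gene and of Socs3 against Control (horizontal axis) with OSM, LIF and IL6. Lines are 95% intervals of each gene in the fit, unadjusted for the number of genes tested. Filled points passed at an adjusted p under 0.05. Pim2, Bcl3 and Mcl1 are filled for both OSM and LIF, Bcl2 for LIF alone, and no IL6 point is filled.

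With IL6, the 9 genes lay between −0.24 (Pim1) and 0.16 (Pim2) against Control, with adjusted p-values of 0.937 and above. Only Bcl3 had both IL6 libraries beyond both Control libraries, 1 of 9, where 28.2% of all tested genes did. Over all tested genes 809 reached an unadjusted p under 0.05, and DESeq2 called 19. Against Control, groups did not overlap for 8 of 9 genes with OSM, where 60.9% of all tested genes did not, and for 7 of 9 with LIF, where 52% did not.

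Set against each other, OSM and LIF differed for Mcl1 and Bcl2, 2 of 9, both higher with OSM, where 8.02% of all tested genes passed and 4.06% were higher. Mcl1 was 0.34 higher with OSM (SE 0.073, adjusted p 0.0106) and Bcl2 0.62 higher (SE 0.13, adjusted p 0.0102). For Mcl1 the adjusted p was 0.182 and 0.0567 without LIF replicates 1 and 2, and 0.0813 and 0.122 without OSM replicates 1 and 2. For Bcl2 it was 0.177 without LIF replicate 1, 0.0596 without OSM replicate 1 and 0.106 without OSM replicate 2. Pim3 passed with OSM and LIF alone in the fit (adjusted p 0.0364, against 0.204).

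Against IL6, OSM was higher for Pim2, Pim3, Bcl3 and Mcl1, 4 of 9, where 15.6% of all tested genes passed and 8.09% were higher. The differences were 0.39 for Pim2 (adjusted p 0.0377), 0.33 for Pim3 (0.0206), 0.38 for Bcl3 (0.0133) and 0.51 for Mcl1 (3.16e-04). For Pim2 the adjusted p ran from 0.0655 (without LIF replicate 1) and 0.0656 (without LIF replicate 2) through 0.0684 (without IL6 replicate 2), 0.0743 (without OSM replicate 2) and 0.108 (without IL6 replicate 1) to 0.299 (without OSM replicate 1). Pim3 had 0.061 without IL6 replicate 1, 0.170 without OSM replicate 1 and 0.0844 without OSM replicate 2, and Bcl3 had 0.150 without OSM replicate 2. Pim1 passed without IL6 replicate 2 (0.94, adjusted p 6.71e-04, against 0.53 and 0.130). LIF differed from IL6 for Bcl3 (0.57, adjusted p 0.00538) and Bcl2 (−0.79, adjusted p 0.00617), 2 of 9, where 2.76% of all tested genes passed, 1.73% higher and 1.03% lower. Those calls were lost without LIF replicate 2 for Bcl3 (adjusted p 0.112) and without LIF replicate 1 for Bcl2 (0.140). Pim2 passed against IL6 in the fits without Control replicate 1 (0.0244) or 2 (0.0234) and with the 2 groups alone (0.0471), against 0.0859.

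In Control the 9 genes spanned a wide range of levels per kilobase of M21 exon. Mcl1 was highest at 35.9 ± 3.97 CPM per kb (SD, n = 2), followed by Pim3, then Bcl6 at 15.4 ± 0.159, Bcl2l1 at 10.5 ± 0.819 and Myc at 9.54 ± 1.35. Bcl2l1 and Myc did not differ beyond their spread, nor did Pim1, Pim2 and Bcl3 (6.30 ± 0.185). Bcl2 was lowest at 1.22 ± 0.0967. With the longest transcript as the length, Pim3 went from rank 2 to rank 4, at 18.5 CPM per kb, below Bcl6 at 26.2. Bcl2l1 at 18.7 did not differ from Pim3 beyond their spread. The other places in the order below these held.

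Over the 8 libraries, log2 CPM of Pim2 followed that of Bcl3 (Pearson r 0.83) and Pim3 that of Mcl1 (0.87), while Bcl3 ran opposite to Myc (−0.81) and Bcl2 (−0.82). These values are descriptions of 8 libraries, 2 of which share each treatment. Among 10868 well-counted genes, the closest to Bcl3 were Cdyl2 (r 0.990), Ifit1 (0.980) and Ddx60 (0.979). Closest to Mcl1 were Acadm (0.994), Ptger4 (0.993) and Nbr1 (0.993), closest to Pim2 were Twnk (0.985), Trmt112 (0.978) and Stt3b (0.975), and closest to Bcl2 were Phlpp1 (0.971), Anxa5 (0.968) and Foxs1 (0.964).

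Other genes of the Bcl2 family were read beside the 3 apoptosis inhibitors. Of 8 anti-apoptotic genes listed, 4 were tested, and Bcl2l2 is the one beside those described (0.09 with OSM and 0.01 with LIF). None of the 3 pore-forming genes Bax, Bak1 and Bok passed by edgeR with either cytokine (Bax −0.18 with OSM, adjusted p 0.0778). Of 9 tested BH3-only genes, whose products trigger apoptosis, 1 rose with each cytokine: Bmf with OSM and Pmaip1 (Noxa), whose protein binds Mcl1, with LIF. Over all tested genes 10.7% rose with OSM and 4.18% with LIF, so 1 of 9 is near the background for OSM. Leaving out either IL6 replicate brought a lower call among the BH3-only genes with OSM and with LIF. In the fit of all 8 libraries 10.5% of all tested genes fell with OSM and 3.52% with LIF. Bmf stood at 19.4 and 20.8 CPM in Control and 24.9 and 26.6 in OSM, a change of 0.36 (SE 0.12, adjusted p 0.0491). Pmaip1 stood at 79.8 and 87.0 CPM in Control, 115 and 104 in LIF, and 86.8 and 93.5 in OSM, a change of 0.39 with LIF (SE 0.076, adjusted p 0.00673) and 0.11 with OSM (adjusted p 0.339). The adjusted p for Bmf reached 0.245 without OSM replicate 2, 0.139 without OSM replicate 1, 0.196 and 0.0771 without Control replicates 1 and 2, and 0.0817 and 0.0815 without LIF replicates 1 and 2, and was 0.0716 with no filter on low counts and 0.052 with DESeq2. For Pmaip1 it was 0.121 without LIF replicate 1.

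**Figure D3:**
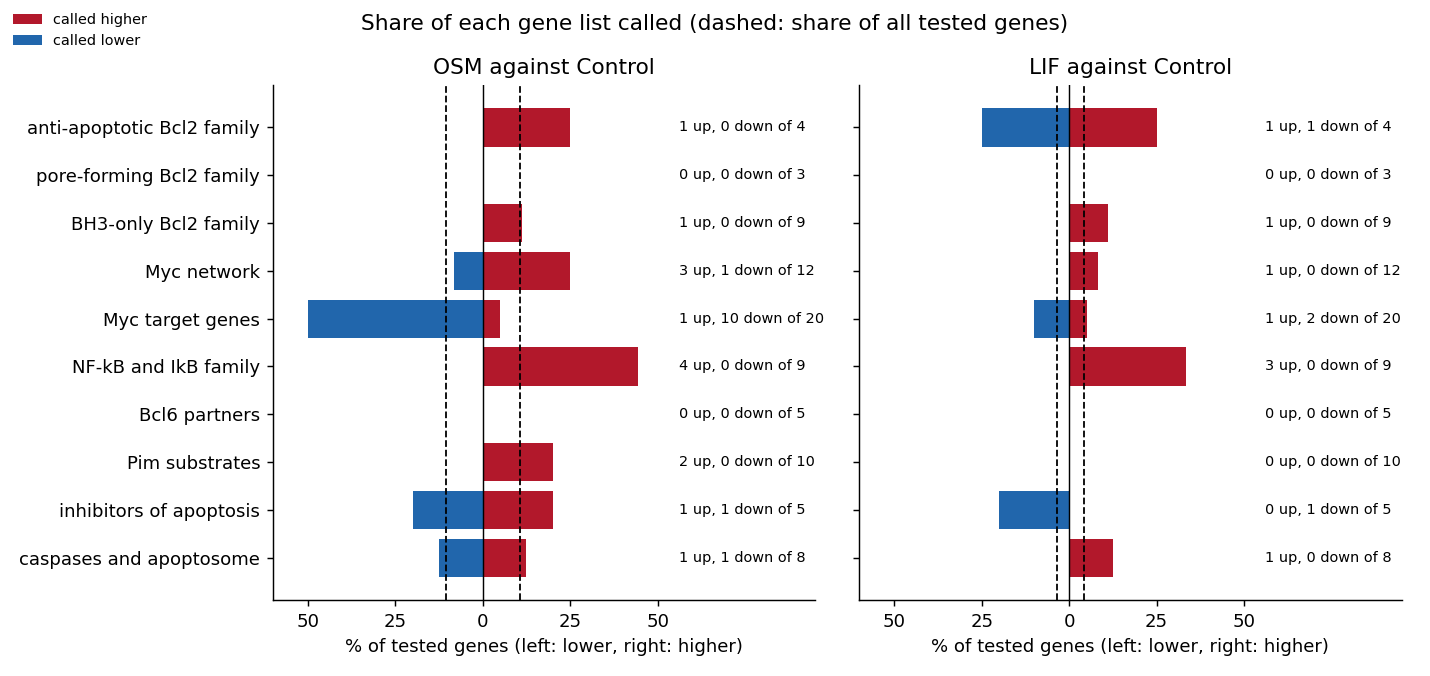
Share of the tested genes of each list called higher (right) or lower (left) with OSM and with LIF against Control, in percent, with dashed lines at the share of all tested genes called that way. With OSM, 10 of 20 Myc target genes were lower, and fewer when Control replicate 1, OSM replicate 1 or OSM replicate 2 was left out. Of the NF-kB and IkB genes, 4 of 9 were higher with OSM.

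Downstream of the mitochondria, Casp6, an executioner caspase, rose with both cytokines, while the cytochrome c gene Cycs fell with OSM. That made 1 of 8 caspase and apoptosome genes higher and 1 lower with OSM, and 1 higher with LIF, where without either IL6 replicate 1 was also lower with LIF. Over all tested genes 10.7% rose and 10.5% fell with OSM, and 4.18% rose and 3.52% fell with LIF. So 1 of 8 each way is near the background for OSM. Casp6 stood at 33.0 and 30.8 CPM in Control, 47.2 and 49.5 in LIF, and 60.6 and 57.1 in OSM. It rose by 0.88 with OSM (SE 0.073, adjusted p 1.84e-06) and by 0.60 with LIF (adjusted p 3.53e-04). Cycs fell by 0.41 with OSM (adjusted p 4.43e-04). Of 5 tested inhibitors of apoptosis, Cflar, which blocks caspase 8, rose by 0.31 with OSM (adjusted p 0.00605), and Birc5 (survivin), which also serves cell division, fell by 2.03 with OSM (adjusted p 2.30e-08) and by 0.64 with LIF (adjusted p 7.89e-04). Cflar had 0.0562 without Control replicate 1 and 0.0578 without OSM replicate 1. Birc5 fell beside the markers of dividing cells, whose part in its fall was not tested.

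The 12 genes listed as the Myc network include relatives of Myc beside its partners and antagonists. Over all tested genes 10.7% rose and 10.5% fell with OSM, while 4.18% rose and 3.52% fell with LIF, in the fit of all 8 libraries. Of the 12, 3 rose and 1 fell with OSM, and 1 rose with LIF. Without Control replicate 2, a further call lower with OSM appeared. With LIF, 1 fell with the 2 groups alone, and leaving out either Control or either IL6 replicate also brought a lower call. Mxd1, whose product competes with Myc for Max, stood at 16.7 and 18.0 CPM in Control, 20.6 and 21.0 in IL6, 35.7 and 36.3 in LIF, and 52.0 and 46.7 in OSM. The 4 groups did not overlap, and the rise was 1.50 with OSM (SE 0.084, adjusted p 5.32e-08) and 1.05 with LIF (SE 0.085, adjusted p 1.27e-05). Its relatives Mxd4 and Mnt rose by 0.53 (adjusted p 9.24e-04) and 0.30 (adjusted p 0.0171) with OSM. The call for Mnt was lost without Control replicate 1 (0.0675), OSM replicate 1 (0.0966) or OSM replicate 2 (0.0978). Mxd3, a relative expressed in dividing cells, fell by 1.87 with OSM (SE 0.21, adjusted p 3.34e-05).

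Of 20 genes listed as Myc targets, 10 fell and 1 rose with OSM, with a median log2 change of −0.30, and 2 fell and 1 rose with LIF, with a median of −0.07. The number that fell with OSM was smaller without Control replicate 1, OSM replicate 1 or OSM replicate 2. The number of all genes called with OSM also moved with the library left out, so these shifts do not single out this list. Over all tested genes 10.5% fell with OSM and 3.52% with LIF, and the medians were −0.003 and −0.008. Fbl, which encodes the nucleolar methyltransferase fibrillarin, stood at 40.1 and 33.6 CPM in Control, 28.6 and 27.7 in LIF, and 23.9 and 23.5 in OSM. It fell by 0.64 with OSM (adjusted p 4.43e-04) and by 0.39 with LIF (adjusted p 0.0267). The mitochondrial enzyme gene Shmt2 fell by 0.77 with OSM (adjusted p 4.72e-04) and the chaperonin gene Hspe1 by 0.42 (adjusted p 8.88e-04), and Hspe1 by 0.25 with LIF (adjusted p 0.0456). Ccnd2, encoding cyclin D2, rose by 0.48 with OSM (adjusted p 1.37e-04). Odc1, the rate-limiting enzyme gene of polyamine synthesis, rose by 0.27 with LIF (adjusted p 0.0166) and fell by 0.21 with OSM (adjusted p 0.0249). With LIF, leaving out LIF replicate 1 gave an adjusted p of 0.144 for Fbl, 0.249 for Hspe1 and 0.121 for Odc1, and leaving out LIF replicate 2 gave 0.221, 0.276 and 0.175. Fbl also lost its call with LIF without Control replicate 1 (0.189), OSM replicate 1 (0.0589) or OSM replicate 2 (0.0586), and Odc1 without Control replicate 2 (0.0655). Hspe1 lost its call without Control replicate 1 (0.153), Control replicate 2 (0.0896), OSM replicate 1 (0.0918) or OSM replicate 2 (0.0915), and with no filter (0.0687). The dividing-cell markers fell in the same libraries, from 882 to 1037 CPM in Control to 261 to 307 in OSM, and their part in these changes was not tested.

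**Figure D4:**
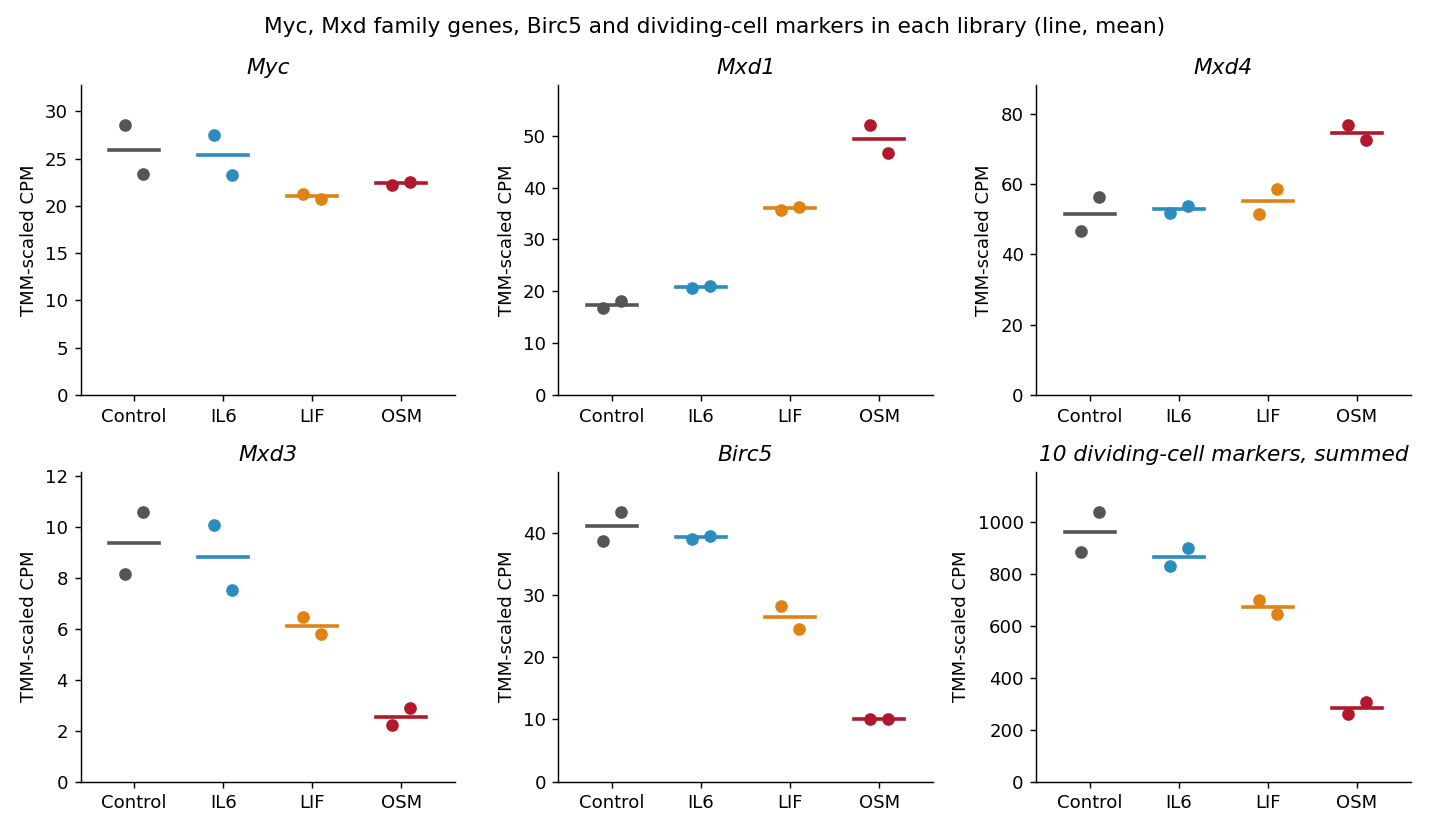
TMM-scaled CPM (vertical axis, from 0) of Myc, Mxd1, Mxd4, Mxd3 and Birc5 and the summed level of 10 dividing-cell markers in each library, 2 points per group with a line at the mean. Mxd1 rises from Control to OSM while Mxd3, Birc5 and the summed markers are lowest in the 2 OSM libraries.

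NF-kB and IkB genes were read next, as Bcl3 is an IkB-like partner of NF-kB. Of 9 tested, 4 rose with OSM and 3 with LIF and none fell, with medians of 0.30 and 0.26, where over all tested genes 10.7% rose with OSM and 4.18% with LIF. The count with LIF was smaller without Control replicate 1 or either LIF replicate. The number of all genes called with LIF also moved with the library left out. Nfkbia, the IkB-alpha gene, stood at 45.7 and 42.3 CPM in Control, 53.5 and 45.1 in IL6, 52.3 and 61.0 in LIF, and 72.7 and 67.6 in OSM. It rose by 0.67 with OSM (adjusted p 2.45e-04) and by 0.37 with LIF (adjusted p 0.0361), and Rela, the p65 subunit, by 0.55 (adjusted p 1.97e-04) and 0.37 (adjusted p 0.0104). Nfkb2 rose by 0.39 with OSM (adjusted p 0.00186). With LIF the adjusted p for Rela was 0.108 and 0.0942 without LIF replicates 1 and 2. For Nfkbia it was 0.0645 and 0.161 without Control replicates 1 and 2, 0.391 without LIF replicate 2, and 0.0695 without either OSM replicate.

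None of 5 tested partners of Bcl6, its corepressors among them, passed with OSM or LIF in the edgeR fit over all 8 libraries, and 1 was called higher with OSM without either IL6 replicate. Of 10 Pim substrates, Cdkn1b, the cell cycle inhibitor p27, and Akt1s1, the mTOR regulator PRAS40, rose with OSM by 0.37 (adjusted p 0.00201) and 0.28 (adjusted p 0.0217), and none passed with LIF in the same fit, where over all tested genes 10.7% rose with OSM. In the fit of all 8 libraries 10.5% of all tested genes fell with OSM, and 4.18% rose and 3.52% fell with LIF. Without Control replicate 2 or either IL6 replicate, a Pim substrate was called higher with LIF, and without Control replicate 1 a lower call appeared. With OSM, 1 was lower with the 2 groups alone, and lower calls also appeared without either IL6 replicate. Akt1s1 had an adjusted p of 0.0846 without Control replicate 2 and 0.258 without OSM replicate 1. With IL6 no gene of these 10 lists passed, where 0 of all 15603 tested genes did.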

How the data were processed

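Gene-level RNA-seq was deposited as raw counts per gene, 1 file per library. The library kit was strand-specific and selected mRNA, per the labels' protocols. Per the submitters' processing notes, the tools were FastQC 0.11.9, MultiQC 1.12, Trim Galore 0.6.5, STAR 2.7.3a, HTSeq 0.11.1 and DESeq2 1.34.0, with the builds GRCm39 and mm39. The annotation release and the strand setting of counting are not given in the sources used here. The deposited counts leave out reads of no or several genes or places, 11.7% to 12.7% per library, which were kept out of library sizes. Libraries held 29482077 to 30025471 counts. Replicates differed by more than counting error, with a chi-square per gene of 2.97 (LIF) to 12.0 (IL6).

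Counts were tested with edgeR 4.0.16 in R 4.3.3: filterByExpr with a minimum count of 10, TMM scaling, and a robust quasi-likelihood fit with a mean per group over all 8 libraries (4 residual degrees of freedom). P-values were adjusted by Benjamini and Hochberg over the 15603 genes of each of 6 contrasts, and a gene was called under 0.05. Alternatives were no filter, RLE scaling, the 2 groups alone, a replicate block, DESeq2 1.42.0 and leaving out each library. Lengths, exon overlap and shared sequence came from GENCODE M21 (GRCm38), and promoter windows from RefSeq (GRCm38.p6). The reference build differs from that of the counts, so genes carry no other coordinates.

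The 9 genes, the 10 further lists and the 5 marker lists were written from general knowledge, with earlier results of these data known. Besides the 9 genes and Socs3, the text names, per further list, up to the 3 largest called rises and falls with OSM and 2 with LIF (absolute log2 change of at least 0.25), and the 3 genes closest to each changed gene in Pearson correlation with a mean of at least 100 counts. Bax, Bak1, Bok, Bcl2l2, Col1a1, the absent markers and the values of listed genes under other cytokines were added after their values were seen. The alternatives for list genes were also chosen after seeing the data. A further listed gene is not reported here.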

Additional observations from a re-analysis of the deposited data

How the results depend on the processing

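In the fit of all 8 libraries, 3 of the 9 genes were called for OSM against Control and 4 for LIF against Control. For IL6 against Control it was 0, for OSM against LIF 2, for OSM against IL6 4 and for LIF against IL6 2. Only these could lose a call, and the rest were uncalled from the outset. The 9 genes in 6 comparisons gave 702 values under the 13 alternatives. Of these, 621 kept direction and side of the threshold, 32 lost a call, 18 gained one and 31 changed sign, none of them a called value, the lowest adjusted p among the last being 0.198. With no filter on low counts, OSM against IL6 gave 0.00504 for Bcl6. The number of all genes called with IL6 against Control went from 0 to 19 with DESeq2 and to 9 with a replicate block. With the 2 groups alone in the fit, OSM against LIF gave 2893 genes (against 1251) and 4 of the 9 genes (against 2).

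The labels do not say whether replicate numbers pair the libraries. The deviations of same-numbered libraries correlated by 0.007 to 0.181 over pairs of groups, which does not settle it. With a replicate block, 832 genes were called for LIF against IL6 (against 431). The block called Pim3 with OSM against Control (adjusted p 0.0223), Myc with LIF against Control (0.0456), Pim1 for OSM against LIF (0.00372) and against IL6 (0.00337), and Pim2 for LIF against IL6 (0.0295), and ended no call of the 9 genes. It also called 6 myotube markers lower with OSM (against 2), 1 Bcl6 partner higher with OSM and 1 Pim substrate higher with LIF (against 0 each).

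Leaving out 1 library at a time leaves an arm with 1 library, which is assumed to vary like the others. All genes called ran from 1620 to 4042 for OSM against Control, 306 to 1661 for LIF against Control, 0 to 176 for IL6 against Control, 421 to 1738 for OSM against LIF, 1100 to 2693 for OSM against IL6, and 78 to 704 for LIF against IL6. Of the 9 genes, 2 to 4, 2 to 4, 0 to 0, 0 to 3, 1 to 4 and 1 to 3 were called in the same order. Uncalled changes that altered sign ran as follows. OSM against Control ran from −0.0395 to 0.129 for Bcl2l1. LIF against Control ran from −0.0583 to 0.162 for Pim3 and −0.142 to 0.0362 for Bcl2l1. IL6 against Control ran from −0.651 to 0.0811 for Pim1, −0.0206 to 0.368 for Pim2, −0.182 to 0.0309 for Pim3, −0.180 to 0.0139 for Bcl6, −0.165 to 0.121 for Myc, −0.0202 to 0.208 for Mcl1, −0.0508 to 0.111 for Bcl2l1 and −0.157 to 0.00739 for Bcl2. OSM against LIF ran from −0.112 to 0.0640 for Pim2 and −0.0647 to 0.0430 for Bcl6. OSM against IL6 ran from −0.0980 to 0.0955 for Bcl6 and −0.0278 to 0.0496 for Bcl2l1. LIF against IL6 ran from −0.374 to 0.359 for Pim1, −0.0862 to 0.107 for Bcl6 and −0.169 to 0.00849 for Bcl2l1. The cause of these shifts was not tested. With 2 libraries per group, the width of the intervals limits what could be called.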
